A study of Mus musculus with 9 samples.

Results

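The members are mmu-miR-451a and mmu-miR-144-3p (mmu marks the mouse and is left out below), microRNAs (miRNAs) that are made from neighbouring hairpins of 1 transcript in red cell precursors. They were chosen by name among the 1881 mouse miRNAs on the array, so there are 2 of 1881. The values do not bear out the label for both. miR-451a was measured on all 9 arrays, whereas miR-144-3p was above background on 0 of 9, so only miR-451a could be compared between groups.

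The tissue was liver of wild-type male C57BL/6J mice, a common inbred strain, aged 20 weeks. It was measured on 9 Agilent mouse miRNA arrays of 1 colour, with 3 groups of 3 arrays. Control mice were fed chow for 17 weeks from 3 weeks of age. The high fat diet mice were fed a diet with 45% of its energy as fat over the same 17 weeks, and for the last 5 weeks, from 15 weeks of age, were given saline by stomach tube. The metformin mice were fed that same diet and over the same 5 weeks were given metformin, a drug that lowers blood glucose, at 3 mg per kg per day. The labels do not say whether the control mice also received a vehicle. Each array measured a pool from 4 mice and RNA came from 15 mg of tissue, so the spread between arrays is one between pools and not between single mice. The labels name no step that washes blood out of the liver. miR-122-5p, the hallmark miRNA of hepatocytes, was detected on 9 of 9 arrays.

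miR-451a is one of the most abundant miRNAs of red cells. It is cut from its precursor by the Argonaute protein Ago2 in place of Dicer, the enzyme that cuts nearly all other miRNA hairpins, and it restrains the 14-3-3ζ protein, which limits stress on maturing red cells. miR-144 is processed by Dicer in the usual way, and the transcription factor GATA1 drives both in erythroid cells. In adult liver, signal of the pair can come from the blood held in the tissue.

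The mature sequences below show how the members and the other products of their locus differ. They come from RefSeq (GRCm38.p6), are written from the 5′ to the 3′ end, and carry the seed (bases 2 to 8, which pair with target messenger RNAs) in capitals. All 4 products of the locus matched an entry, and miR-101a-3p is shown as the nearest to miR-144-3p in seed among the array miRNAs searched.
miR-451a: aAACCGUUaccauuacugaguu
miR-144-3p: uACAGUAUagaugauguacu
miR-144-5p: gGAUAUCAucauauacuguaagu
miR-451b: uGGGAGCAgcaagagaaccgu
miR-101a-3p: uACAGUACugugauaacugaa
The members share no seed with each other. Among 1679 mature mouse sequences 0 others carried the seed of either. Some of the 1881 miRNAs on the array have no entry among these sequences and were not searched. Of the array miRNAs with an entry 1, miR-101a-3p, shared bases 2 to 7 with miR-144-3p. miR-101a-3p differed from it in the seed by U8C, counted from 1 at the 5′ end with the base of miR-144-3p first. In contrast to miR-144-3p, it was detected on 9 of 9 arrays.

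In GRCm38.p6 the miR-144 hairpin lies at chr11:78073005-78073070 and the miR-451a hairpin at chr11:78073170-78073241, both on the plus strand with 99 bases between them. The hairpins are printed with the mature miRNAs in capitals, to show that miR-144 has an arm on each side of its loop and that miR-451a runs from the stem into the loop.
Mir144: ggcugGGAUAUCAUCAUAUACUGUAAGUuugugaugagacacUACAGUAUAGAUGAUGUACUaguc
Mir451a: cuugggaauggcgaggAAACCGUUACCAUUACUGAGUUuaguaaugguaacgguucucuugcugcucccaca
The mature miR-451a (chr11:78073186-78073207) fills positions 17 to 38 of its 72-base hairpin and is the 1 mature entry of that hairpin. The 66-base miR-144 hairpin has 2 entries, miR-144-5p at positions 6 to 28 and miR-144-3p (chr11:78073047-78073066) at positions 43 to 62. miR-451b is annotated on the minus strand, from a hairpin that is the reverse complement of that of miR-451a, and the mature miR-451a and miR-451b overlap by 0 bases.

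The arrays of the series differed in a way that touches both members. On 6 of 9 arrays, strips of columns at the left or right edge held bright probes without signal at their own position. These strips took up 41.1% to 43.8% of the spots on the control arrays, 0% to 53.6% on the high fat diet arrays and 0% to 31.1% on the metformin arrays. The values below leave these strips out unless all spots are named. A level is the log2 of a probe's intensity relative to the 75th percentile of its array, and 143 miRNAs could be tested. Between 136 and 190 miRNAs per array were detected by the scanner software, and 0 spots were saturated.

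miR-451a was read by a brighter and a dimmer probe, with 15 spots each on every array. Of the 270 spots over all arrays, 68 lay in strips, and 50 of these were below 50% of the median of the spots kept. All 202 remaining spots were well above background. Between 7 and 15 spots were used per array for the brighter probe and between 5 and 15 for the dimmer one. The spots of a probe on an array varied by 4.3% to 13.0% (coefficient of variation).

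**Figure D1:**
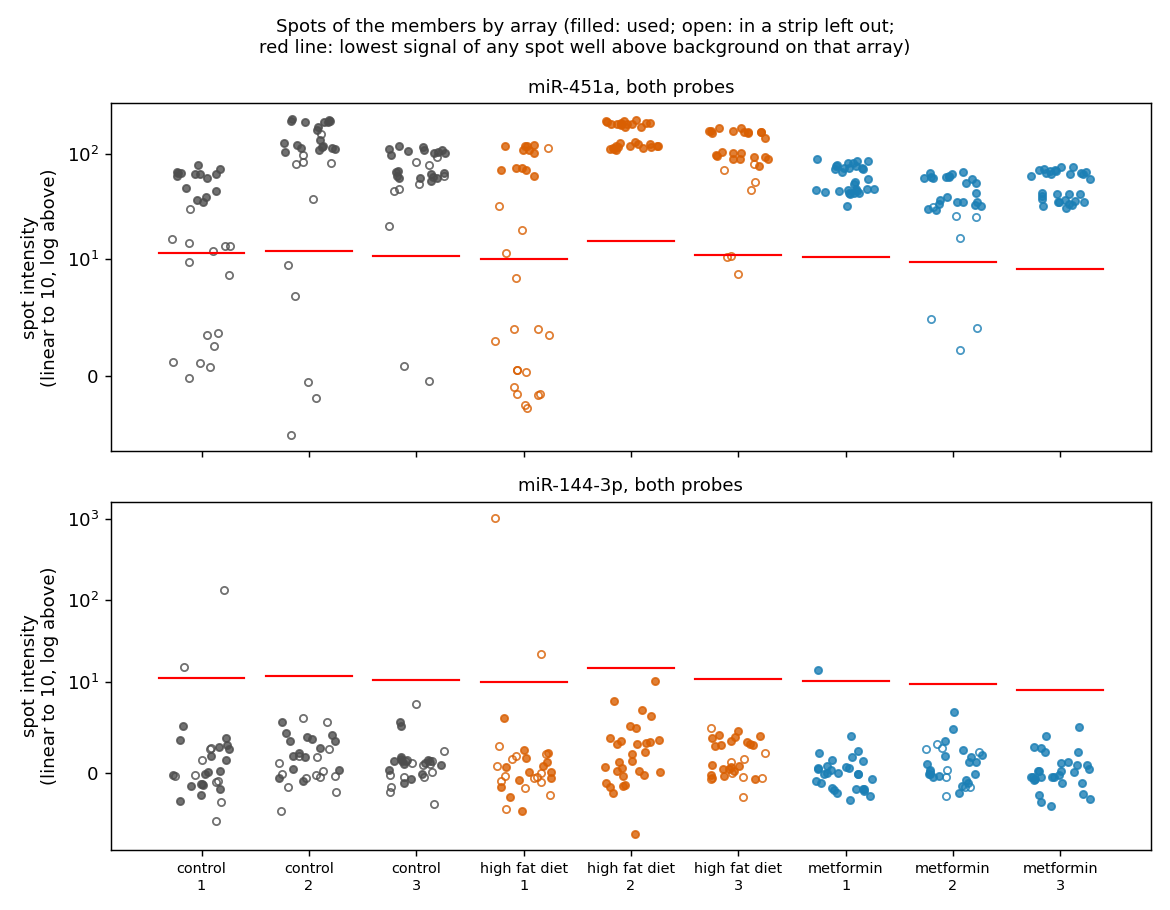
Background-subtracted intensity of each spot (vertical axis, linear up to 10 and logarithmic above) on the 9 arrays (horizontal axis) for miR-451a (upper panel) and miR-144-3p (lower panel), both probes together. Filled points were used, open points lay in strips, and the red line is the lowest signal of any spot well above background on that array. All 202 used miR-451a spots were well above background, against 1 of 194 used miR-144-3p spots.

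On the first high fat diet array the strip was the widest, with 53.6% of the spots. In that strip 10.4% of bright spots gave signal at their own position, and 65.0% gave it at the position laid out 2 rows further down. Bright here means a median over 100 outside the strip, so miR-451a was counted there with its brighter probe alone. For its dimmer probe, whose kept spots had a median of 70.9, 6 of 9 strip spots read 53.0 to 71.3 at the position 2 rows down and the other 3 read 2.3 to 5.8. For its brighter probe, with a kept median of 117.6, 3 of 6 read 88.0 to 122.2 there and the other 3 read 0.5 to 1.6. The bright readings lay at columns farther into the strip than the dim ones. These shifted readings were not used in any level.

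**Figure D2:**
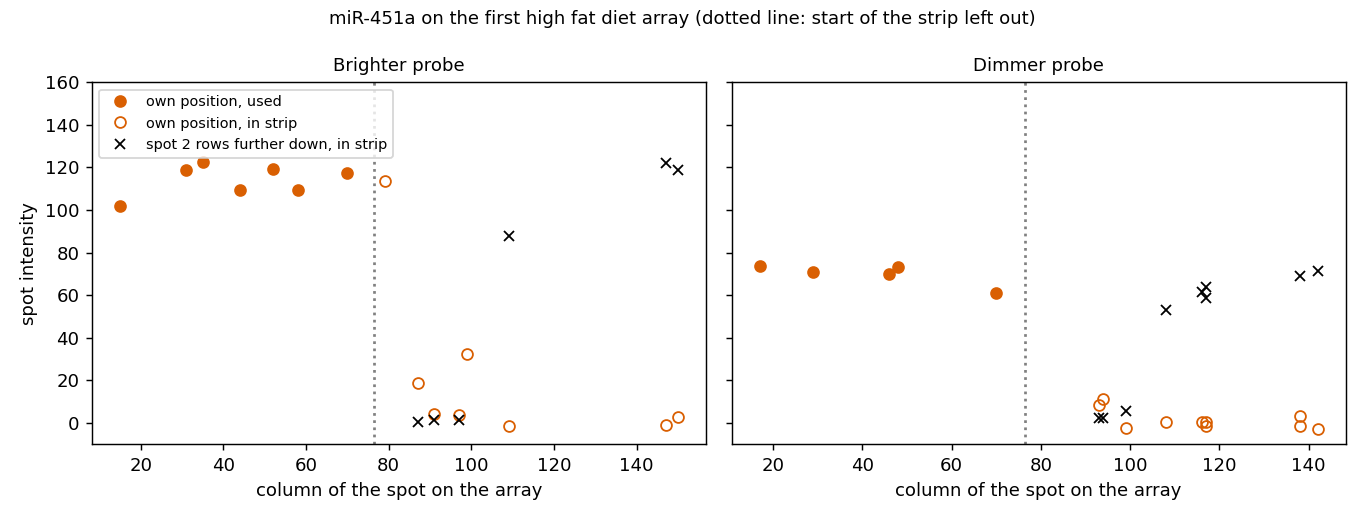
Intensity of the miR-451a spots (vertical axis) by column (horizontal axis) on the first high fat diet array for the brighter probe (left) and the dimmer probe (right), with a dotted line where the strip starts. Filled circles are the spots used, open circles are spots in the strip, and crosses are the spots laid out 2 rows further down. Of these, 3 of 6 read 88.0 to 122.2 on the left and 6 of 9 read 53.0 to 71.3 on the right, and the others read at most 5.8.

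The level of miR-451a was lowest and most even in the metformin group. On the control arrays the brighter probe had a median intensity of 65.1, 202 and 107, in order of replicate number. On the high fat diet arrays it was 118, 194 and 163, and on the metformin arrays 76.1, 60.1 and 67.9. Before scaling, the first control array thus lay among the metformin arrays. The second lay above all 3 high fat diet arrays, and the third lay between those and the metformin arrays.

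After scaling, the level of miR-451a was -1.57, -0.13 and -1.07 on the control arrays (mean -0.92 ± 0.73, SD, n = 3). It was -0.91, -0.53 and -0.99 on the high fat diet arrays (-0.81 ± 0.25, SD, n = 3). On the metformin arrays it was -1.72, -1.94 and -1.80 (-1.82 ± 0.11, SD, n = 3). All 3 metformin arrays lay below all 6 others, while the control arrays reached both above and below those of the high fat diet. Such a position below all 6 others was shared by 3 of the 143 tested miRNAs (2.1%): miR-451a, let-7e-5p and miR-677-3p. The names besides miR-451a were chosen after their values were seen.

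The dimmer probe gave the same order of groups. Its level was -2.31, -0.94 and -1.88 in control, -1.64, -1.25 and -1.79 with the high fat diet, and -2.50, -2.75 and -2.74 with metformin. The brighter probe exceeded the dimmer one by 0.72 to 0.93 on the log2 scale on all 9 arrays, with an SD of 0.06. With all spots, strips included, this distance varied from 0.40 to 1.41 (SD 0.29). The probes thus kept a steadier distance in the reading that left the strips out. That reading also took the median of spots and the other their mean, so the part of the strips alone was not tested.

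**Figure D3:**
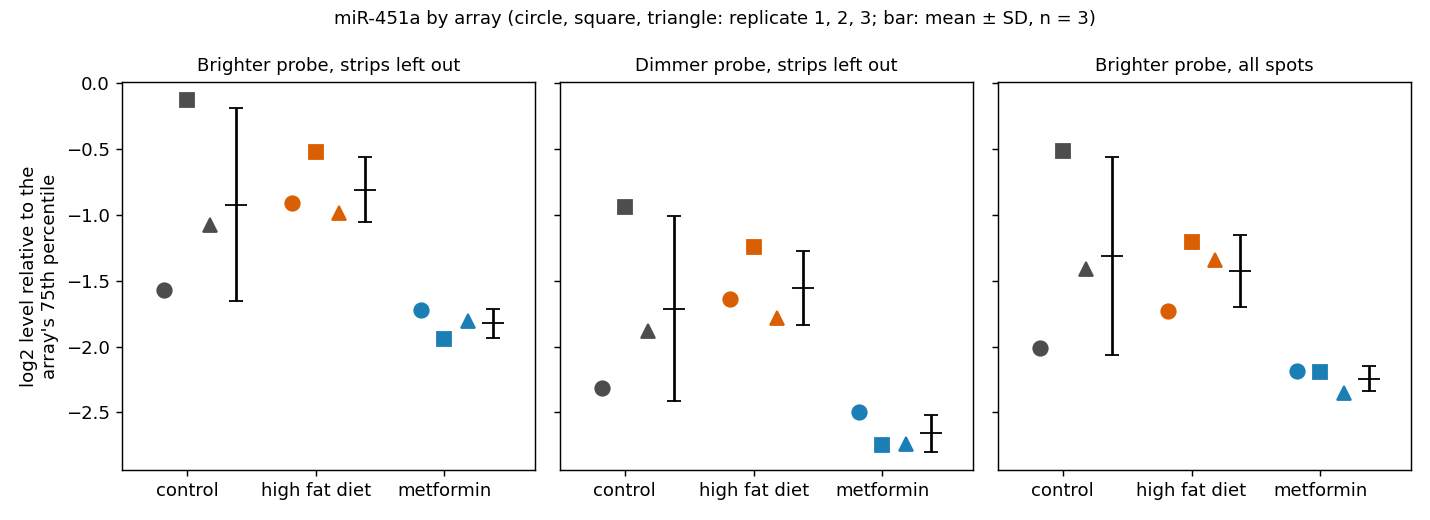
Level of miR-451a (log2 relative to the array's 75th percentile, vertical axis) on each array by group, for the brighter probe, the dimmer probe, and the brighter probe with all spots. Symbols mark the replicate number and bars the mean ± SD of 3 arrays. In each panel the 3 metformin arrays lie below the 6 others, and the control arrays spread the most.

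The high fat diet was set against control to ask whether the diet alone moved miR-451a. The difference was 0.11 on the log2 scale (SE 0.29, 95% interval -0.53 to 0.76, adjusted p = 0.807 by limma), or 1.08-fold. The arrays overlapped, and the exact two-sided permutation test of 3 against 3 arrays gave p = 0.8. In this comparison limma called 20 of 143 miRNAs (14.0%), and miR-451a was not among them. Its difference took place 93 of 143 from the lowest, near the median of 0.03 over all tested miRNAs. The sign was not settled: it was -0.11 with all spots and -0.11 without the first control array. Without the second control array the difference was 0.53 (adjusted p = 0.0855 by limma). Scaling to the 75th percentile over all probes gave 0.65 (adjusted p = 0.114 by limma) and moved the median of all tested miRNAs to 0.56, so that miR-451a stood 0.10 above it. The interval allows a level up to 0.76 higher or 0.53 lower on the log2 scale with the diet, so these arrays do not show that the diet left miR-451a as it was.

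Metformin was set against the high fat diet to ask what the drug added on that diet. The difference of miR-451a was -1.01 (SE 0.29, 95% interval -1.66 to -0.37), or 2.02-fold lower with metformin, the lowest of the 143 tested miRNAs. The median over all of them was -0.06. The groups did not overlap and were 0.74 apart at the nearest arrays, a lack of overlap in this direction that 11.9% of tested miRNAs shared. The unadjusted p was 0.00529, and the adjusted p of 0.158 by limma missed the threshold of 0.05, which 1.4% of miRNAs passed in either direction and 0.0% in the lower direction. The exact two-sided permutation test gave p = 0.1, the smallest that 3 against 3 arrays allow.

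The call on this difference depended on arrays outside the comparison. All 9 arrays share 1 estimate of the spread, and the control arrays of miR-451a were far apart. Without the first control array the difference was -1.02 with an adjusted p of 0.023 by limma, and without the second it was -1.03 with an adjusted p of 0.0134. Over all alternatives the adjusted p ranged from 0.0134 to 1.0. After normexp background correction with an offset of 50, which draws dim signals together, the difference was -0.61 (adjusted p = 0.243 by limma).

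Metformin on the high fat diet was also set against chow control. Here the difference was -0.90 (SE 0.29, 95% interval -1.54 to -0.26), or 1.87-fold lower with metformin, again the lowest of 143, with a median over all of -0.00. The arrays did not overlap, but the gap between the nearest ones was 0.16, and 13.3% of the tested miRNAs showed no overlap in this direction. The unadjusted p was 0.0105 and the adjusted p was 0.150 by limma, above the threshold that 1.4% of miRNAs passed (0.699% in the lower direction). The exact two-sided permutation test gave p = 0.1, the smallest possible. Both metformin comparisons use the same metformin arrays, so they are not independent of each other.

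The size of this second difference rested on 1 pool. Without the second control array it was -0.50 (adjusted p = 0.170 by limma), place 11 from the lowest. Without the first control array it was -1.13 and passed (adjusted p = 0.0244 by limma). Scaling to the 75th percentile over all probes gave -0.09 (adjusted p = 0.782 by limma), but moved the median of all tested miRNAs to 0.80, so that miR-451a stood 0.89 below it. Relative to that median miR-451a lay 0.90 below with the main scaling.

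With all spots the metformin differences were of like size. The level of miR-451a was then -2.01, -0.52 and -1.41 in control, -1.73, -1.20 and -1.35 with the high fat diet, and -2.19, -2.19 and -2.35 with metformin. The difference was -0.82 against the high fat diet (SE 0.31, adjusted p = 0.383 by limma) and -0.93 against control (SE 0.31, adjusted p = 0.203 by limma). Both were the lowest of the 139 miRNAs tested in this way. limma called 0.0% of them in either comparison, with 15 of 139 at an unadjusted p under 0.05 in each. The groups did not overlap in the lower direction for 1.44% against the high fat diet and for 9.35% against control. miR-451a was the 1 miRNA of these 139 (0.719%) whose metformin arrays all lay below the 6 others. The position on the slide is also known. The third control array lay on a slide without any other array of the series. On the slide that held 8 arrays, the first row held the 3 high fat diet arrays and the first metformin array. The second row held the other metformin arrays and 2 control arrays. Within the first row, the metformin array lay 0.92 below the mean of the 3 high fat diet arrays. Within the second row, the 2 metformin arrays lay 1.03 below the 2 control arrays. The high fat diet and control arrays of this slide lay in different rows, and within a row they could not be compared.

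**Figure D4:**
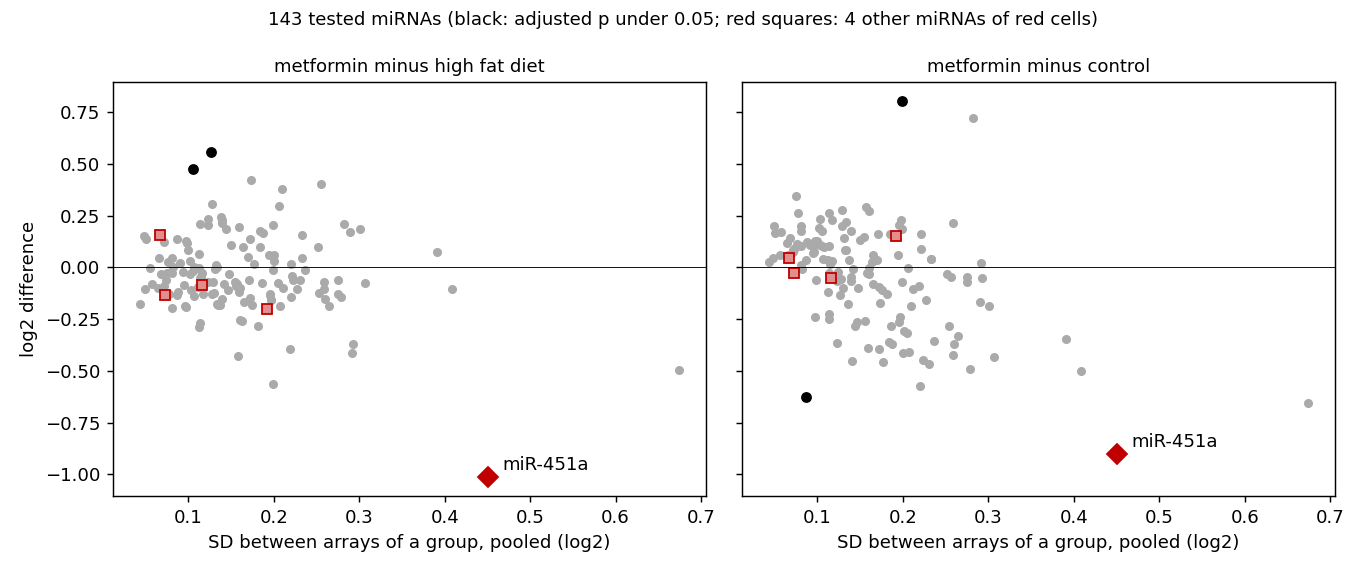
Log2 difference of each of the 143 tested miRNAs (vertical axis) against the SD between arrays of a group, pooled over the groups (horizontal axis), for metformin minus high fat diet (left) and metformin minus control (right). miR-451a (red diamond) has the lowest difference in both panels and the second highest pooled SD (0.45), while 4 other miRNAs found in red cells (squares) lie between -0.20 and 0.16. Black points passed limma's adjusted threshold.

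The spread of miR-451a between control pools was the largest of all. Its control SD of 0.73 ranked 1 of 143, against a median SD of 0.15, and its control levels spanned 2.71-fold. With the high fat diet its SD of 0.25 ranked 11 (median 0.11) and its levels spanned 1.38-fold. With metformin its SD of 0.11 ranked 70, at the median of 0.11, and its levels spanned 1.16-fold. Whether the groups differed in spread was not tested.

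miR-144-3p was not measurable in any group. It was read by 2 probes of 15 spots each, and the median spot of a probe lay between -0.7 and 3.49 on the 9 arrays. The lowest signal that counted as well above background was 9.16 to 14.93, depending on the array. Of the 194 spots outside the strips 1 was well above background, at 13.9 on the first metformin array. The scanner software detected miR-144-3p on 0 of 9 arrays, and so did the reading with all spots. No fold or test can be given for miR-144-3p, and neither its change nor its course over the arrays could be set against those of miR-451a. A level below background is a bound on what these probes read, and probes of different miRNAs cannot be compared in level, so it does not show that miR-144-3p was absent.

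The remaining products of the locus were likewise not measured. miR-144-5p, the other arm of the miR-144 hairpin, and miR-451b, from the opposite strand, were each detected on 0 of 9 arrays. Single bright spots of these miRNAs lay mostly in the strips: 4 of 5 for miR-144-3p, 5 of 5 for miR-144-5p and 2 of 3 for miR-451b. Of the products of the locus, miR-451a alone was detected.

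The other red cell miRNAs that could be tested had differences nearer to 0 than that of miR-451a in both metformin comparisons, while miR-15b-5p had the larger one in the high fat diet against control. Whether they differed from miR-451a was not tested. The list of red cell miRNAs beside the members held 15 names, of which 13 were on the array, 8 were detected on 0 arrays and 4 could be tested. miR-486a-5p, another erythroid miRNA, was detected on 1 array and so was not tested. To rise or fall here means an adjusted p under 0.05 by limma. In metformin against the high fat diet 0 of the 4 rose and 0 fell, against 2 and 0 of all 143 tested miRNAs. The median difference of the 4 was -0.11 (range -0.20 to 0.16) against -0.06 over all tested miRNAs. miR-16-5p, a repressor of cell cycle genes, had a difference of -0.08, and miR-15b-5p of the same family had -0.20. miR-92a-3p, of the miR-17-92 cluster, had 0.16, and miR-25-3p, of the related miR-106b-25 cluster, had -0.13. With all spots the 4 differences were positive, at 0.40, 0.11, 0.45 and 0.16 in the same order. The median over all tested miRNAs was then 0.16, and 113 of 139 differences were positive. In metformin against control the median of the 4 was 0.01 (range -0.05 to 0.15), and in the high fat diet against control it was 0.07 (range -0.11 to 0.36), with 0 rising and 0 falling in either comparison. Of all 143 tested miRNAs, 1 rose and 1 fell in the former, and 6 rose and 14 fell in the latter. Among the 4, the largest difference in either comparison was that of miR-15b-5p with the diet, at 0.36 (adjusted p = 0.104 by limma) with no overlap of the arrays. With the diet the arrays of 53 of all 143 tested miRNAs did not overlap, in either direction, and neither did those of 2 of the 4. These 4 are also made by other cells of the liver, and their summed scaled level was 2.39 to 2.57 in control, 2.56 to 2.64 with the high fat diet and 2.40 to 2.77 with metformin.

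Markers of other cell types were compared between the same groups. Of 7 leukocyte miRNAs, 4 were tested, and in metformin against the high fat diet they had a median of -0.14 (0.12 with all spots). The endothelial miR-126a-3p had a difference of -0.14, which turned to 0.37 (SE 0.36) with all spots. Over all tested miRNAs the median was -0.06, and 0.16 with all spots. The 5 hepatocyte miRNAs, led by miR-122-5p, had a median of 0.00 (range -0.08 to 0.14, median 0.04 with all spots). Of 5 stellate and mesenchymal miRNAs, 3 were detected on 0 arrays and 2 were tested. These 2, with a median of -0.15 (-0.04 with all spots), were the 2 arms of miR-199a, so they are not separate markers. The dim arm, miR-199a-5p, was detected on 8 of 9 arrays. None of these lists had a member that rose or fell in either metformin comparison, in each of which 1.4% of all tested miRNAs did. In the high fat diet against control 6 of all 143 tested miRNAs rose and 14 fell. The 2 members of these lists that rose were the leukocyte miR-342-3p at 0.39 (adjusted p = 0.0174 by limma) and the stellate miR-199a-3p at 0.31 (adjusted p = 0.0301 by limma). With all spots they stood at 0.26 and 0.57 and did not pass (adjusted p = 0.363 and 0.158 by limma). The medians of the leukocyte, endothelial, hepatocyte and stellate lists were 0.12, 0.18, 0.08 and 0.28 in that comparison and -0.10, 0.04, 0.08 and 0.14 in metformin against control. The summed scaled level of the leukocyte list was 0.488 to 0.577 in control, 0.568 to 0.634 with the high fat diet and 0.502 to 0.562 with metformin. The part of blood content in the values of miR-451a was not tested. In whole tissue, fewer red cells in a liver piece and less miR-451a per cell, of red cells or others, cannot be told apart.

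The miRNAs with the pattern most like that of miR-451a were found by Pearson's r over the 9 arrays among the other 142 tested miRNAs, as a description. They were miR-500-3p (r = 0.68), miR-142a-3p (0.64), miR-27a-3p (0.63), miR-193a-3p (0.60) and miR-25-3p (0.60). After the group means were taken out, r was 0.60, 0.55, 0.25, 0.58 and 0.45 in the same order. With all spots the last 4 had r of 0.57, 0.36, 0.44 and 0.18, and miR-500-3p was not tested. The pattern least like it was that of miR-210-3p, a miRNA induced by low oxygen, at r = -0.72 over the arrays, -0.84 after the group means were taken out and -0.76 with all spots. miR-500-3p, miR-142a-3p and miR-210-3p were dim. miR-500-3p stood at the lower limit of the scale (-4.62) on 1 array, and the lowest level of miR-210-3p was just above that limit. miR-142a-3p lay between -4.44 and -3.88 and was detected on 8 of 9 arrays. All of these values come from the same 9 arrays and share their scaling.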

How the data were processed

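Spot intensity, background-subtracted and not scaled between arrays, was deposited by the authors from Agilent Feature Extraction 11.5.1.1 per the file headers (10.7 per the submitters' processing notes; not resolved). The deposited log2 table holds log2 of the software's total signal plus 1 constant per array (-2.35 to -0.71; column medians -5.67 to -4.03) of unknown centring, except for 0 to 6 miRNAs per array. From each edge, steps of 4 columns were left out while 10% or more of the spots of bright probes (80th percentile over 100) lay under 50% of that level. A probe's value was the median of the spots kept that had no non-uniformity mark, and 425 of 4415 probes with under 3 were dropped. Values were divided by the 75th percentile of the 187 probes found on every array, floored at 0.0406 (log2 -4.62) and logged. A probe was detected where over a share of 0.5 of its spots was well above background. Each miRNA took its brightest probe, and those detected on all arrays of a group were tested. The reading with all spots took the mean of spots without outlier marks (124 probes, floor 0.0272, 139 miRNAs).

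limma 3.58.1 (R 4.3.3) fitted 3 group means over 9 arrays, two-sided, with Benjamini-Hochberg adjustment over all tested miRNAs and a threshold of 0.05, and was tested on simulated data. The number of arrays limits the precision. The files hold no mean spot signal, so normexp used median signals. Named miRNAs were the members, the other products of their locus, miRNAs sharing a seed (miR-101a-3p, which shares bases 2 to 7, was added later), the 5 most like and the 1 least like miR-451a, and cell type lists. Members, lists, reading and alternatives were chosen with earlier results of these data known.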

Additional observations from a re-analysis of the deposited data

Results flagged for a closer look

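A few spots of undetected miRNAs from the locus of miR-451a were bright on the first high fat diet array, above any spot of the same miRNA on the control arrays, inside the strip that was left out. A miR-144-3p spot read 1021.5, and the control probe laid out 2 rows above it had a median of 1403.8 on that array. A miR-144-5p spot read 2000.6, with a control probe at a median of 2075.5 laid out 2 rows above, and another read 203.4, with miR-3473g at 212.3 there. On the first control array the same 3 positions read 134.4, 139.8 and 193.4. None of these spots entered a level.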

How the results depend on the processing

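For miR-451a in the high fat diet against control (0.11), the sign turned with all spots (-0.11), normexp background (-0.01), the deposited table (-0.10) and the slide row as a block (-0.11), and the value ran from -0.11 to 0.53 when each array was left out and was highest, at 0.65, with the percentile over all probes; the 2 turns there were without the first control (-0.11) and the second high fat diet array (-0.02). Without 1 array, metformin minus high fat diet ran from -1.10 to -0.88 (limma's adjusted p = 0.023 at -1.02 and 0.0134 at -1.03) and metformin minus control from -1.13 to -0.50 (adjusted p = 0.0244 at -1.13). miR-451a kept a negative difference in both metformin comparisons under all 22 alternatives. It was the lowest tested miRNA in 20 of 22 (not with no filter or without the first high fat diet array) and 21 of 22 (not without the second control array). The 22 are not separate checks. No filter, the set detected on all arrays and the replicate block could not move -1.01 and -0.90. Nor could the replicate block on all spots move -0.82 and -0.93. With all 3 metformin arrays below the 6 others, leaving out 1 array could hardly turn the sign. The dimmer probe, an alternative chosen like the all-spots block after seeing the data, gave -1.10 and -0.95. With the slide row as a block, a fit that left out the third control array, the values were -0.92 (adjusted p = 0.592 by limma) and -1.03 (adjusted p = 0.143 by limma). They are the differences within a row, from 1 metformin array against 3 and from 2 against 2. The -0.11 of the row block for the diet joins its 2 groups only through the metformin arrays. The slide block set apart only the third control array. It gave 0.04, -1.01 and -0.98 in the 3 comparisons, as leaving that array out did.

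In metformin minus high fat diet, miR-16-5p turned to 0.40 with all spots, 0.19 with the percentile over all probes and 0.09 in the deposited table. miR-15b-5p turned to 0.11 and 0.07 under the first 2 of these, and miR-25-3p to 0.16 and 0.14, and to 0.04 with quantile normalization. The median difference over the tested set moved too, from -0.06 to 0.21 under the percentile over all probes. There miR-16-5p, miR-15b-5p and miR-25-3p all stayed below that median. When strips were kept the median became 0.16, with miR-16-5p above it, miR-15b-5p below it and miR-25-3p level with it. In the deposited table it was -0.07, below miR-16-5p, and with quantile normalization 0.0, below miR-25-3p. The cause of the turns was not tested.

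limma's count of called miRNAs for high fat diet minus control (20) was 9 with all spots, 1 with the percentile over all probes, 39 with the slide as a block, 0 with no filter, the deposited table or the row block (45, 12 and 30 at an unadjusted p under 0.05), and 6 to 40 without 1 array. For metformin minus high fat diet (2) it was 1 with the slide as a block and 0 to 3 without 1 array. It was 0 with all spots, normexp, the percentile over all probes, quantile normalization, no filter, the mean of all probes, the deposited table, the replicate block and the row block (15, 11, 7, 19, 15, 16, 1, 13 and 10 unadjusted). For metformin minus control (2) it was 98 with the percentile over all probes, 7 with the slide and 5 with the row as a block, 0 with all spots, normexp, no filter or the deposited table (15, 34, 31 and 10 unadjusted), and 1 to 8 without 1 array.

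The labels give no pairing of pools. Deviations of same-numbered arrays correlated between -0.236 and 0.433 outside the strips. With all spots they correlated between 0.229 and 0.514 for high fat diet against control, 0.20 and 0.406 for metformin against control, and -0.149 and 0.150 for metformin against high fat diet, so every pair was above 0.1 only for the first 2 of these. With the replicate block miR-451a stood at 0.11, -1.01 and -0.90 (adjusted p = 0.780, 0.122 and 0.0872 by limma), and 22, 0 and 3 miRNAs were called against 20, 2 and 2. With all spots and the replicate block it stood at -0.11, -0.82 and -0.93 (adjusted p = 0.771, 0.143 and 0.128), 7, 0 and 0 miRNAs were called (39, 25 and 17 unadjusted), and miR-16-5p, miR-15b-5p and miR-25-3p were again at 0.40, 0.11 and 0.16. The tests of miR-144-3p, and of miR-451a against it, could not be run under any alternative because it was at the floor.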
